A study of Saccharomyces cerevisiae with 2 samples.

Results

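The 10 genes described here form the core of the DNA damage checkpoint of Saccharomyces cerevisiae: the clamp genes MEC3, RAD17 and DDC1, the clamp loader gene RAD24, the adaptor gene RAD9 and the kinase genes MEC1, TEL1, RAD53, CHK1 and DUN1. They were picked by gene symbol from the 5325 symbols on the tag array, and the choice was made with their tag ratios known. The members were thus selected on the same log2 ratios that are given below, which are a description of these strains and carry no test. Of the 10 symbols, 9 had 1 tag pair and a ratio on both arrays, among 5219 strains so measured. DDC1 has 7 probes in each tag set where a single tag has 1 or 6, so its spots are described on their own.

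In the tub1 pool, diploid yeast that each lacked 1 copy of a different gene had been transformed with a tub1D::URA3 cassette, which replaces TUB1, the major alpha-tubulin gene. In the ura3 pool, the same starting set of 5896 haploid-convertible heterozygous strains had received a ura3D::URA3 cassette. By this design, every transformant in either pool carried its own heterozygous deletion together with URA3, and those of the tub1 pool lacked 1 copy of TUB1 as well. Both pools grew for 2 days at 30 °C on medium without uracil, and the barcodes of the strains, called the first and second tag here, were amplified from genomic DNA. The tub1 pool was labelled with Cy3 and the ura3 pool with Cy5 on each of the 2 arrays, which are experiments 1 and 2.

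Values are log2 ratios of the 2 dyes with the sign as deposited, centred on the median of each array and tag set, and means are over n = 2 arrays with their SD. The direction of the ratio is not stated. A positive value is likely the ura3 pool over the tub1 pool, hence fewer tags in the tub1 pool, because scanner programs of this kind usually divide red by green. The TUB1 deletion strain, which might have helped to tell the direction, had a value in 0 of 4 spots. The strain lacking 1 copy of TUB3, the minor alpha-tubulin gene, marks the upper end of the scale at 4.22 ± 0.32. From a tag ratio, fewer transformants of a strain and slower growth of its transformants cannot be told apart. Nothing in the labels says that the arrays came from separate transformations, and the spread between them may be technical. No spot brightness was used here, so spots with little signal could not be set aside.

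The checkpoint detects damaged or unreplicated DNA and holds the cell cycle until it is dealt with. Rad24, with the small subunits of replication factor C, loads the ring of Mec3, Rad17 and Ddc1 onto DNA, where it activates the sensor kinase Mec1. Mec1 and its relative Tel1 phosphorylate the adaptor Rad9, on which the effector kinases Rad53 and Chk1 are activated, and Rad53 activates Dun1, which raises nucleotide supply. MEC1 and RAD53 are essential genes, whereas haploid cells live without each of the others. In a heterozygous diploid 1 intact copy of the gene is present in all cases.

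The 9 strains had ratios on both sides of 0. Among them MEC3 had the highest ratio, followed by MEC1, while TEL1, RAD24, RAD9, DUN1 and RAD53 had means within 0.5 of 0. The negative mean of RAD17 rested on its second tag and the size of that of CHK1 on array 1. The median of the 9 means was -0.09, against -0.09 over all strains. On both arrays 4 members were positive (MEC3, MEC1, TEL1 and RAD24), against 32.7% of all strains, and 4 were negative (RAD17, RAD53, CHK1 and DUN1), against 41.7% of all strains. A ratio of 2-fold or more was seen on both arrays for 1 member on the positive side, MEC3, against 0.728% of all strains, and for 0 members on the negative side, against 3.74% of all strains. Because the members were chosen with these ratios known, nothing is read from these counts.

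**Figure D1:**
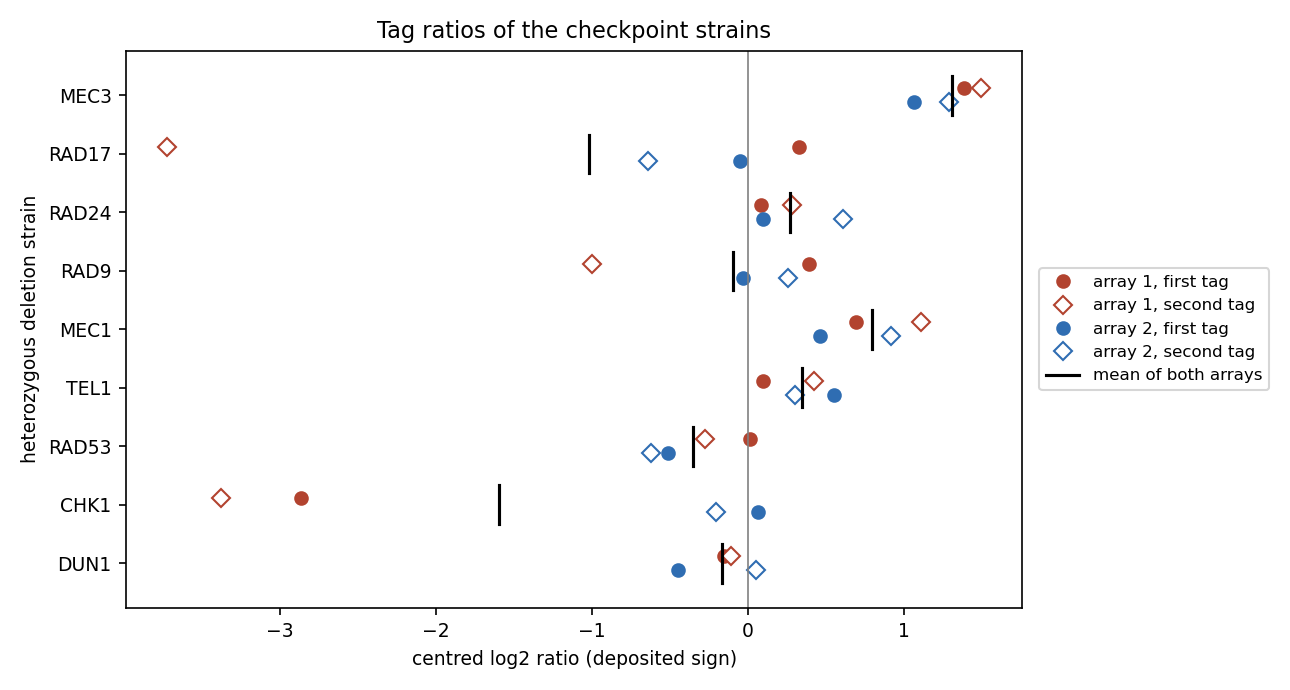
Centred log2 ratio (horizontal axis, deposited sign) of each tag on each array for the 9 checkpoint strains with 1 tag pair; filled circles are the first tag and open diamonds the second, red is array 1 and blue array 2, and a black bar marks the mean of both arrays. The 4 values of MEC3 lie between 1.06 and 1.5, whereas the second tag of RAD17 and both tags of CHK1 lie far below 0 on array 1 and between -0.64 and 0.06 on array 2.

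The 3 clamp genes, whose products sit in 1 ring, had unlike ratios. For MEC3 the first tag stood at 1.38 on array 1 and 1.06 on array 2, and the second tag at 1.5 and 1.29. All 4 values were more than 2-fold positive, and tags and arrays lay close together, as in many strains. A gap between tags as large or larger was found in 85.3% of strains on array 1 and 65.4% on array 2. For the gap between arrays the share was 52.0%. The mean was 1.31 ± 0.19, or 2.48-fold, which placed MEC3 at rank 19 of 5219 strains counted from the most positive. All 4 tag values were positive for 4 members (MEC3, MEC1, TEL1 and RAD24), against 20.4% of the 5191 strains with a complete set of 4 values, and all 4 were at least 2-fold positive for 1 member, MEC3, against 0.405%. MEC3 was printed with 6 spots per tag, and each of these spots on either array lay between 0.86 and 1.60. The SD among the 6 spots was 0.12 and 0.09 for the first and second tag on array 1 and 0.12 and 0.05 on array 2.

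RAD17, whose product is the second ring subunit, gave opposite pictures with its tags on array 1. The first tag stood at 0.33 on array 1 and -0.05 on array 2. The second tag stood at -3.73 on array 1 and -0.64 on array 2. The low mean of -1.02 ± 0.96 thus came from 1 tag, mostly on 1 array, and with the first tag alone the mean was 0.14. A difference between the tags of a strain as large as the 4.06 seen for RAD17 on array 1 was found in 2.12% of strains, and the median such difference was 0.46. The 6 spots of the second tag on array 1 ran from -6.52, the smallest ratio in the data, to -2.0, with an SD of 1.51. Scatter as large was seen in 1.02% of second tags with repeated spots, whose median SD was 0.06 on that array. On array 2 the same tag had 5 negative spots and 1 positive spot. The part of weak or scattered spots in this value was not tested.

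DDC1, whose product is the third ring subunit, had 7 spots in each tag set, which could not be assigned to 1 tag and 1 strain. The 14 spots on array 1 ran from -0.08 to 0.35 with a median of 0.14, and the 14 spots on array 2 ran from -0.26 to 0.42 with a median of 0.10. Whichever tag they belong to, all DDC1 spots lay near 0 and below every spot of MEC3.

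RAD24, the loader of the clamp, had small positive averages with either tag on either array. Its first tag stood at 0.09 on array 1 and 0.10 on array 2, and its second tag at 0.28 and 0.61. The mean was 0.27 ± 0.12, and 22.3% of all strains had a mean as high. The spots of its second tag were all positive on both arrays, while 2 of 6 spots of the first tag were negative on array 2.

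RAD9, the adaptor that carries the signal from Mec1 to Rad53 and Chk1, had 1 spot per tag. The first tag stood at 0.40 on array 1 and -0.03 on array 2, and the second at -1.0 and 0.26. Both signs occurred with each tag, and the mean of -0.09 ± 0.29 lay at the median of all strains. The mean changed sign without array 1 (0.11) and with the first tag alone (0.18).

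Among the kinases, the apical kinase gene MEC1 was the highest. It also had 1 spot per tag. The first tag stood at 0.70 on array 1 and 0.47 on array 2, and the second tag at 1.11 and 0.92. All 4 values were positive, with the second tag above the first on both arrays by 0.42 and 0.45. The mean was 0.80 ± 0.15, or 1.74-fold, and 2.95% of strains had a mean as high.

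TEL1, the related apical kinase, was positive in all 4 values but lower than MEC1 on each array. Its first tag stood at 0.10 on array 1 and 0.55 on array 2, and its second tag at 0.43 and 0.30. The mean was 0.35 ± 0.12, and every one of its repeated spots was above 0. The order of its tags was reversed between the arrays, and 17.1% of strains had a mean as high.

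RAD53, the main effector kinase, was lower on array 2 than on array 1. Its first tag stood at 0.02 on array 1 and -0.51 on array 2, and its second tag at -0.28 and -0.62. Of these values 3 were negative, none of them by 2-fold, and the mean was -0.35 ± 0.31. RAD53 had 1 spot per tag, so the scatter of its spots is not known.

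CHK1, the effector kinase that protects the anaphase inhibitor Pds1, had the lowest mean of the group, with arrays that disagreed. On array 1 the first tag stood at -2.87 and the second at -3.38. On array 2 the first tag stood at 0.06 and the second at -0.20. The strain value was -3.12 on array 1 and -0.07 on array 2, so that the mean of -1.60 ± 2.16 describes neither array. A difference between arrays as far from 0 as that of CHK1, which was -3.05 as array 1 minus array 2, was found in 0.786% of all strains, and the median size was 0.28.

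The spots of CHK1 were scattered as well. On array 1 all 6 spots of either tag were negative, from -4.52 to -1.44 for the first tag and from -5.52 to -2.44 for the second, with SDs of 1.06 and 1.14. On array 2 1 spot of the first tag held a filled-in ratio of 1e+06 and was treated as missing, 1 spot stood at 3.82 and the other 4 ran from -1.90 to -0.49. Their median was -0.53 although their mean was 0.06. The SD of 2.18 was reached in 0.128% of the 780 first tags with repeated spots on that array, which is CHK1 alone. The second tag on array 2 was tighter, with a median of -0.22 and an SD of 0.32. The part of spot quality in the low ratio on array 1 was not tested.

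DUN1, the kinase below Rad53, stayed close to 0. Its first tag stood at -0.16 on array 1 and -0.45 on array 2, and its second tag at -0.11 and 0.05. The mean was -0.16 ± 0.05, and 54.5% of strains had a mean as high or higher. Of the 9 strains, 0 had 4 negative tag values, against 20.1% of strains with 4 values.

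**Figure D2:**
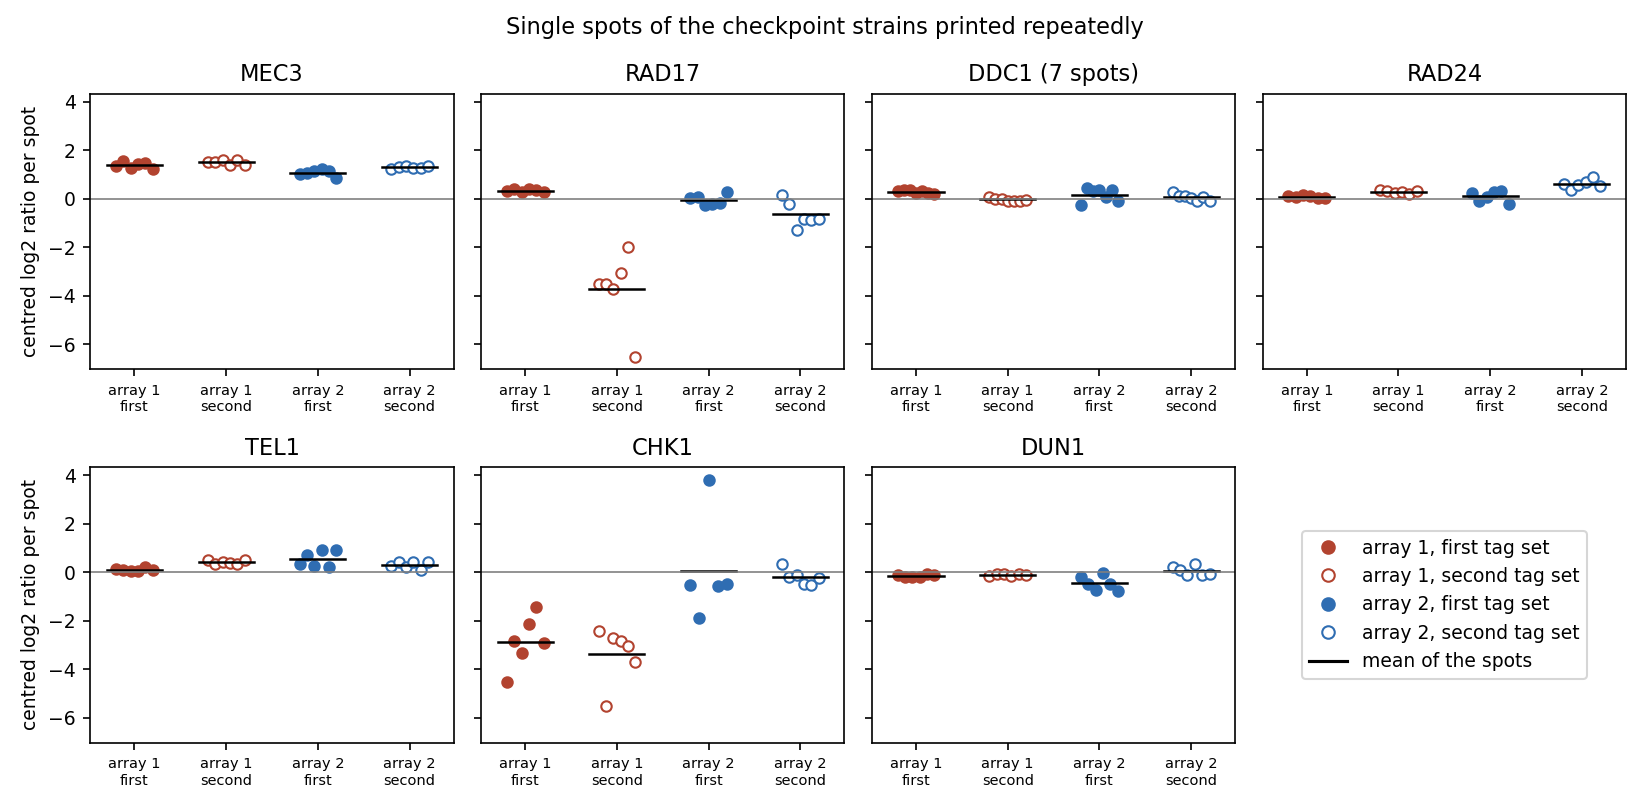
Centred log2 ratio of each spot (vertical axis) for the checkpoint genes printed repeatedly, by array and tag set; red is array 1 and blue array 2, filled circles are the first and open circles the second tag set, and black lines are the means of the spots. The spots of MEC3 lie between 0.86 and 1.60, while those of CHK1 and of the second RAD17 tag on array 1 reach -5.52 and -6.52, and 1 CHK1 spot on array 2 lies at 3.82.

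Ordered by their means, the strains ran MEC3, MEC1, TEL1, RAD24, RAD9, DUN1, RAD53, RAD17 and CHK1. Between MEC3 and MEC1, between MEC1 and TEL1, and between RAD24 and RAD9 the array values, averaged over tags, did not overlap. The differences of the means were 0.51, 0.45 and 0.36. Single tag values did overlap in each of these pairs. The lowest of MEC3 was 1.06 and the highest of MEC1 1.11, the lowest of MEC1 was 0.47 and the highest of TEL1 0.55. For RAD24 the lowest was 0.09, and for RAD9 the highest was 0.40. The ranks of the upper strains thus rest on tag averages from 2 arrays. TEL1 and RAD24 overlapped, at a difference of 0.08. From RAD9 downward each strain overlapped its neighbour in this order, so the ranks of the lower strains are not resolved. On array 2 alone, RAD53, RAD17 and DUN1 lay below CHK1, the lowest strain by its mean.

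**Figure D3:**
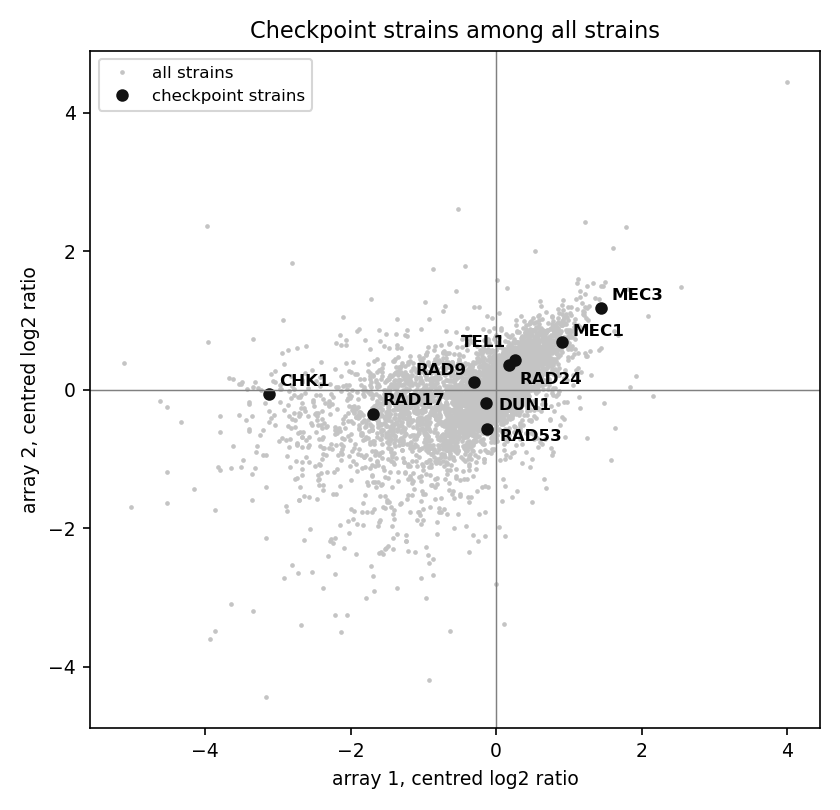
Centred log2 ratio of each strain on array 1 (horizontal axis) and array 2 (vertical axis), with all 5219 strains in grey and the 9 checkpoint strains in black. MEC3 (1.44 and 1.18) and MEC1 (0.90 and 0.69) lie at the upper right, CHK1 (-3.12 and -0.07) and RAD17 (-1.70 and -0.35) at the left, and the other 5 near the centre.

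The strains whose tag values were nearest to those of the extreme members were found by the Euclidean distance over 4 values, that is, both tags on both arrays. Nearest to MEC3 were DIP5, a permease for acidic amino acids, at a distance of 0.30, NPC2, a vacuolar sterol transport protein, at 0.31, and SAT4, a protein kinase gene, at 0.36. Their means were 1.21 ± 0.05, 1.24 ± 0.06 and 1.16 ± 0.04. Nearest to CHK1 were POL2, the catalytic subunit of DNA polymerase epsilon, at 0.29, EUG1, an endoplasmic reticulum protein of the disulfide isomerase family, at 0.32, and AST1 at 0.45. These 3 strains share the disagreement of the arrays, as the distance requires. POL2, for example, had -2.72 and -3.35 for its tags on array 1, but 0.26 and -0.05 on array 2.

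Position along the chromosome was examined because deletions can touch adjacent genes. The 9 strains lie on 6 chromosomes, with medians over all strains of these chromosomes from -0.14 to -0.04. For each member the 2 nearest measured strains on either side were taken in the gene order of assembly R64, which gave 36 neighbours with a median mean of -0.04 and a range from -2.09 to 0.78. The 4 neighbours of MEC3 had means from -1.01 to -0.01, all below 0, whereas MEC3 itself was at 1.31. Next to MEC1, CKS1, which encodes a subunit of the cyclin-dependent kinase, had 0.31 ± 0.30 and YBR137W -0.06 ± 0.43, both below the 0.80 of MEC1. Near CHK1 the lowest neighbour was HSM3, a proteasome assembly chaperone gene, at -2.09 ± 0.77. RIF1, a telomere protein gene directly beside CHK1, had 0.50 ± 0.02. UBX7, directly on the other side of CHK1, stood at -1.05 on array 1 and 0.39 on array 2. SCP1, an actin-binding protein gene beside RAD17, stood at -2.69 on array 1 and -0.11 on array 2, while RPS12, a ribosomal protein gene on the other side, stood at 0.65 and 0.08, and the 4 neighbours of RAD17 had a median mean of 0.05.

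The other genes of the checkpoint pathway were taken from a list of 36 grouped by role, which was also drawn up with earlier results of these data known. Of these, 32 had 1 tag pair and were measured, and RFC5 and MRC1 had more than 1 tag per set. TTI2 and HUG1 had no probe under these symbols in the platform annotation. The values that follow are for the 32 measured strains. Their median was -0.01, against -0.09 over all strains. On both arrays 11 of 32 were positive and 10 of 32 negative, against 32.7% and 41.7% of all strains. By limma, with Benjamini-Hochberg adjustment over all strains, 0 of 32 passed in either direction, and the share over all strains was 0%. Before adjustment, p was under 0.05 for 1 positive strain (RFX1) and for 2 negative ones (ASF1 and SLX4), against 9.12% positive and 11.7% negative among all strains. Robust variance moderation gave 1 and 1 at that level, and no moderation gave 2 and 1, with 0 strains passing after adjustment in either case. With both tags kept in the fit and the array as a random block, limma called 0 of the 32 as positive, against 6.94% of all strains. It called 1 as negative, SLX4, at an adjusted p of 0.0454, against 3.27% of all strains. The 2 tags of a strain on 1 array are not independent replicates, and that fit allows for this with 1 correlation shared by all strains. It has no term for a difference between tags that recurs on both arrays. In the limma fit on strain values, SLX4 had an adjusted p of 0.239. Because the list was drawn up with earlier results known, nothing is read from these calls.

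Genes of replication factor C and of complexes related to it had small ratios. Among the 5 measured the median was 0.14, with 2 positive and 0 negative on both arrays. The shares over all strains were 32.7% and 41.7%, which also stand behind the counts of the groups below. CTF18, the large subunit of a complex other than that of Rad24, was highest at 0.40 ± 0.20. ELG1, of another such complex, was lowest at 0.00 ± 0.28. RFC4, a small subunit shared by these complexes and that of Rad24, had 0.15 ± 0.11.

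The sensor and mediator genes had a median of 0.16 over 4 strains, with 3 positive and 1 negative on both arrays. CSM3, which acts at the replication fork, was highest at 0.28 ± 0.13. LCD1, the obligate partner of Mec1, was lowest at -0.76 ± 0.61, so that its mean had the opposite sign to that of MEC1. Its first tag stood at 0.55 on array 1 and 0.10 on array 2, but its second tag at -2.94 and -0.77, a disagreement of tags like that of RAD17.

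In the group of the MRX complex, which recruits Tel1 to DNA ends, and of proteins that stabilise Mec1 and Tel1, the median was -0.20 over 6 strains, with 1 positive and 4 negative on both arrays. MRE11, the nuclease subunit, was lowest at -0.88 ± 0.58, and its tags stood at -2.28 and -0.31 on array 1 and at -0.70 and -0.24 on array 2. RAD50, its partner, had -0.46 ± 0.08. SAE2, a cofactor of the nuclease, was highest at 0.30 ± 0.09.

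The targets, which include the ribonucleotide reductase genes under Dun1 control, had a median of -0.17 over 9 strains, with 3 positive and 3 negative on both arrays. RFX1, a repressor of these genes, was highest at 0.50 ± 0.07, with all 4 tag values above 0. SML1, an inhibitor of ribonucleotide reductase whose loss lets cells live without MEC1 or RAD53, was lowest at -0.53 ± 1.05, from -1.28 on array 1 and 0.21 on array 2. Its second tag on array 1, at -3.02, stood apart from its other 3 values. PDS1, the target of Chk1, had -0.17 ± 0.29.

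Genes of recovery and dampening had a median of 0.05 over 8 strains, with 2 positive and 2 negative on both arrays. PTC2, a phosphatase that acts on Rad53, was highest at 0.33 ± 0.01. ASF1, a histone chaperone that binds Rad53, was lowest at -1.63 ± 0.10 and was the 1 strain of the 32 that was at least 2-fold from 0 with 1 sign on both arrays, against 3.74% of all strains on the negative side and 0.728% on the positive side. For ASF1 the tags disagreed, with -3.45 and -3.78 for the first tag on arrays 1 and 2 and 0.34 and 0.38 for the second. SLX4, a scaffold that counteracts Rad9, had -0.48 ± 0.09 with 4 negative tag values between -0.63 and -0.40.

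**Figure D4:**
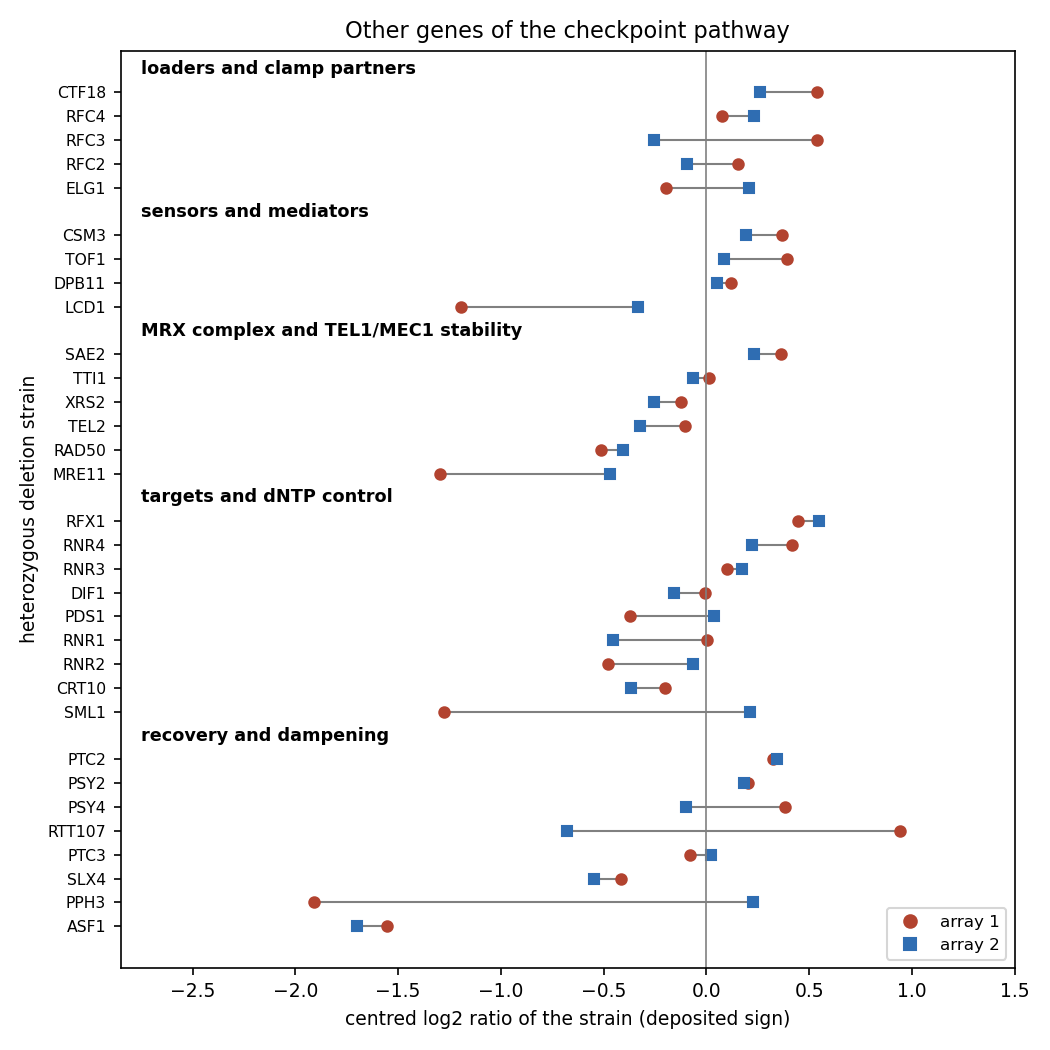
Centred log2 ratio (horizontal axis, deposited sign) of the 32 other checkpoint pathway strains on array 1 (red circles) and array 2 (blue squares), grouped by role and joined by a line for each strain. Most strains lie within 0.5 of 0 on both arrays, ASF1 lies at -1.55 and -1.70, and PPH3, SML1 and RTT107 differ widely between arrays.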

How the data were processed

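Each deposited value is the log2 ratio of the Cy5 and Cy3 signals of 1 spot. Images were analysed with GenePix 5.1, per the labels. For background correction, normalization and ratio direction, the method is not given in the sources used here. Probes were named through the platform annotation, and gene order was read from the R64 gene table. A ratio of 1e+06 (2 values) was set to missing. After averaging the spots of a tag, medians were set to 0 within array and tag set (raising array 1 by 0.12 and array 2 by 0.04), and a strain's value is the mean of its tags. Symbols with more than 1 tag in a set (105, DDC1 among them) were left out of strain values. limma 3.58.1 (R 4.3.3) tested 5219 strains against 0 (lmFit, eBayes, two-sided, threshold 0.05 after Benjamini-Hochberg adjustment). The code was also run on simulated ratios with far less noise than these arrays. That run does not show how many real differences the fit would find here. On the measured strains limma called 0 positive and 0 negative, with 476 and 612 under 0.05 before adjustment. The p-values of this fit rest on the spread between 2 arrays, moderated over all strains. Those of the fit with both tags also include the spread between tags. Since dyes were not swapped, dye effects remain in the ratios. Tables used Python 3.11.15 and pandas 2.3.3, plots matplotlib 3.10.9. Named were all members, the highest and lowest strain of each role group, list strains 2-fold or more from 0 on each array, the 3 strains nearest to the highest and lowest member, and TUB3 for the scale of the assay. Further strains named (neighbours, and RFC4, RAD50, PDS1, SLX4, PPH3 and RTT107) were chosen after their values were seen. Members, lists and alternatives were chosen with earlier results of these data known.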

Additional observations from a re-analysis of the deposited data

How the results depend on the processing

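The means of MEC3, MEC1, TEL1, RAD24, RAD53, CHK1 and DUN1 kept their sign under all 8 alternatives, namely no centring, quantile normalization, either tag set alone, the median of spots, values at the smallest ratio as missing, and each array left out. MEC3 ranged from 1.18 to 1.44 and CHK1 from -3.12 to -0.07. RAD17 was positive with the first tag alone (0.14), and RAD9 with the first tag alone (0.18) and without array 1 (0.11). With the first tag alone 1 member was negative on both arrays instead of 4, and the median of the members was 0.14. Leaving out an array gave a median from -0.13 (without array 2) to 0.11 (without array 1), and 0 to 2 members at least 2-fold negative (RAD17 and CHK1 on array 1). With both tags and the array as a random block, limma called 360 positive and 170 negative strains. Tags on 1 array are not independent replicates, which that fit covers by a correlation shared by all strains. Differences between tags that recur on both arrays have no term in it. Under the other alternatives run, limma called 0 and 0. The cause of these changes was not tested. With 2 arrays and no spot brightness, differences of the size seen for TEL1, RAD24, RAD9, DUN1 and RAD53 are not resolved.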
